A study of Mus musculus with 18 samples.

Results

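The genes described here encode the enzymes that write, maintain and oxidise methyl groups on cytosine in DNA: the DNA methyltransferases Dnmt1, Dnmt3a and Dnmt3b, the maintenance cofactor Uhrf1, and the dioxygenases Tet1, Tet2 and Tet3. They are a list of names, chosen for what the proteins do but with earlier results of these data known. The rule has no threshold on a measured value. All 7 are among the 15402 genes of the table, and all 7 passed the filter on low values that left 13190 genes for testing (a mean log2 value of at least 3).

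In dividing cells, Uhrf1 binds DNA that carries a methyl group on only the parental strand and brings Dnmt1 to it, so that the methylation pattern is copied after replication. Dnmt3a and Dnmt3b place methyl groups on unmethylated CG sites, and the Tet enzymes oxidise 5-methylcytosine, which leads to its loss through replication or base excision repair. In regulatory T cells (Treg) a conserved intronic element of Foxp3, the transcription factor gene that defines these cells, is known to be demethylated when Foxp3 expression is stable. RNA levels were measured here. Neither enzyme activity nor DNA methylation was.

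RNA-seq was performed on 6 populations of T cells with 3 libraries each, from Foxp3-Tocky mice, which carry the fluorescent Timer protein under Foxp3 control. Timer is made in a blue form and matures to a long-lived red form, so that blue marks recent Foxp3 transcription and red marks its past. The animals were female C57/BL6 mice with the Foxp3Timer and Foxp3-IRES-GFP alleles, all were sensitised with 3% oxazolone on abdominal skin, and inguinal and axillary lymph nodes were taken 5 days later. Every population therefore shares both alleles and the sensitisation, each replicate was a pool of 3 mice, and no unsensitised group was analysed here. Tnaive are CD44lo Timer-negative cells and Teff are CD44hi Timer-negative effector cells. Pers1 (Blue-intermediate Red-low, labelled BL1) and Pers2 (Blue-high Red-high, BL2) are the populations with persistent Foxp3 transcription, called the persistent populations below. PAt (Blue-low Red-high, RD1) and Arrested (Blue-negative Red-intermediate, RD2) have little or no blue Timer. The study reads this as less frequent or arrested Foxp3 transcription. Sample labels name the 4 Timer-positive groups de novo, maturing, mature and decaying, in that order.

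The values are log2 normalised counts as deposited, so a difference of 1 is a 2-fold change, and the depth of each library is unknown. Mean Foxp3 lay between 14.42 (Arrested) and 14.82 (Pers2) in the Timer-positive populations, against 11.34 in Tnaive and 10.54 in Teff, and Mki67, a gene of cycling cells, was lowest in Tnaive (8.48) and highest in Pers2 (14.54). The 4 T-cell markers found in the table (Cd3e, Cd3d, Cd3g and Cd4) were high everywhere, with a summed level between 15.93 and 16.62 in every library. The summed levels of markers of other cells were highest in Teff, although those of single genes were not always so. The summed level of 6 B-cell genes was 12.68 to 13.21 in Teff libraries, 11.75 to 12.34 in PAt and Arrested, 11.20 to 11.41 in the persistent populations and 9.79 to 10.33 in Tnaive. For 3 genes of plasmacytoid dendritic cells it was 11.87 to 12.31 in Teff and 10.49 to 11.08 elsewhere, with Siglech at 10.62 in Teff and 3.58 to 4.30 in the other populations. The 6 genes of macrophages and monocytes summed to 10.89 to 11.19 in Teff and 9.03 to 9.98 elsewhere, with Cd14 at 0.55 or less in every population mean. Itgam, also on that list, had a mean of 8.33 in Teff, below 8.44 in Tnaive and 8.88 in Pers1. Of the B-cell genes, Cd79b was at 9.88 in Teff and 10.03 in PAt. Bst2, on the plasmacytoid dendritic cell list, differed little, with 10.96 in Teff and 10.46 to 10.83 elsewhere. The 2 measured NK-cell genes summed to 8.05 to 8.15 in Teff against 5.05 to 6.64, and the 2 CD8 T-cell genes to at least 11.51 in Teff against 9.65 to 10.70. The part of these cells in any difference with Teff was not tested. In such bulk libraries fewer cells of a type and less RNA per cell cannot be told apart.

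**Figure D1:**
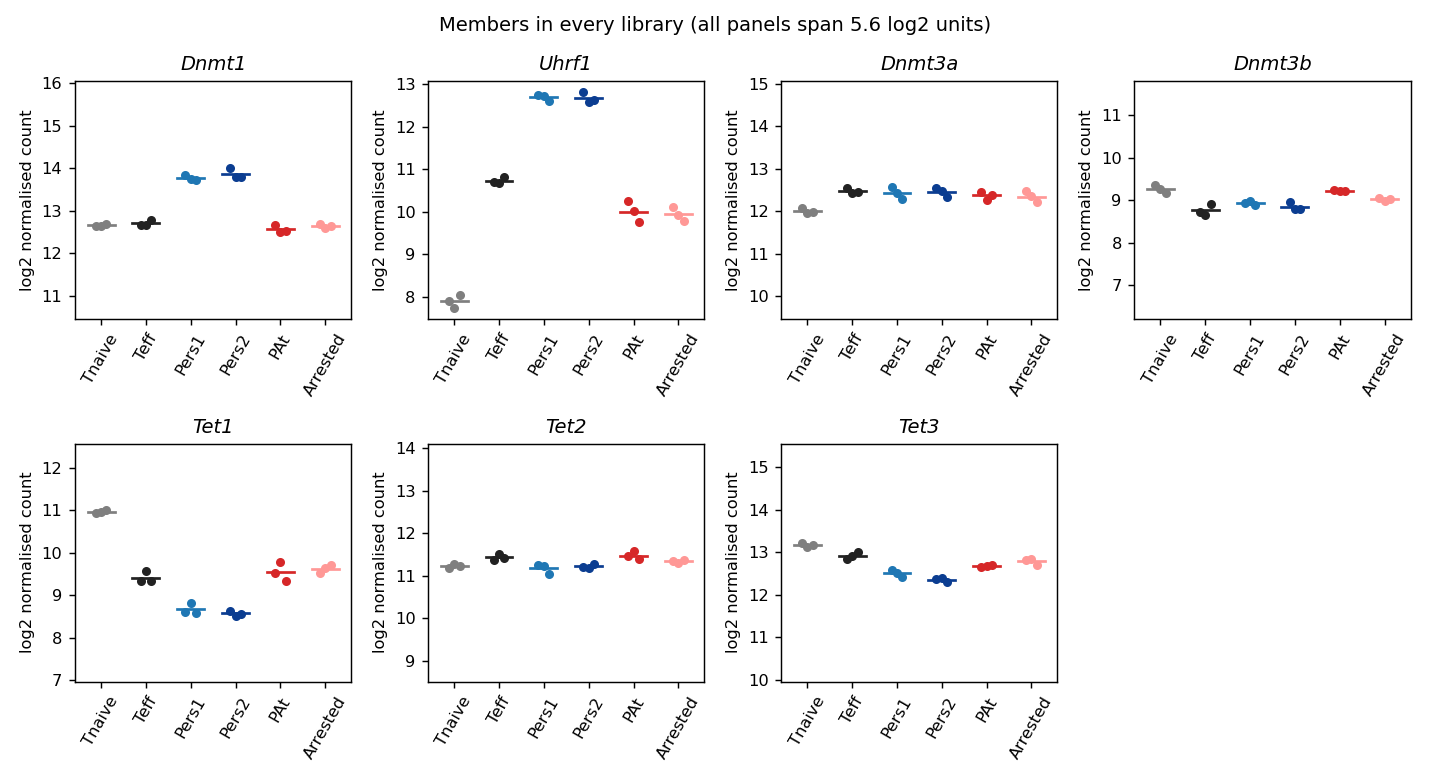
Log2 normalised count of each gene (y axis, every panel spanning the same number of log2 units) in each of the 3 libraries (points) of the 6 populations (x axis), with bars at the population means. Dnmt1 and Uhrf1 are highest in Pers1 and Pers2, Tet1 is highest in Tnaive at 10.96 and lowest in Pers2 at 8.57, and Tet2 spans 0.30 between its highest and lowest mean.

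The members differed widely in how far they moved. Across the 6 population means Uhrf1 spanned 4.80 log2 units, more than 99.2% of tested genes, Tet1 spanned 2.39 and Dnmt1 1.30. The median tested gene spanned 0.58. Tet3 (0.82) lay a little above that median, whereas Dnmt3b (0.50), Dnmt3a (0.47) and Tet2 (0.30) lay below it.

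Dnmt1, the maintenance methyltransferase, was highest in the persistent populations. Its log2 values in the 3 libraries were 13.84, 13.75 and 13.71 in Pers1 and 14.00, 13.79 and 13.81 in Pers2. They were 12.67, 12.51 and 12.52 in PAt and 12.69, 12.60 and 12.64 in Arrested. Tnaive had 12.65, 12.63 and 12.70, and Teff had 12.67, 12.66 and 12.77. Every persistent library lay above every other library, and Teff, Tnaive, Arrested and PAt overlapped with their neighbours in that order of means. The persistent populations exceeded PAt and Arrested by 1.21 ± 0.04 (log2 fold change ± SE, 2.32-fold, limma adjusted p = 4.63e-16) and Teff by 1.12 ± 0.05 (adjusted p = 7.60e-14). Teff and Tnaive differed by 0.05 ± 0.06 (95% interval -0.08 to 0.17, adjusted p = 0.530). The comparison of PAt and Arrested with Tnaive gave -0.05 ± 0.05 (interval -0.16 to 0.05, adjusted p = 0.389). With libraries centred on their medians this fold change was -0.13 (adjusted p = 0.0342), which passes the adjusted p but not the fold threshold.

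Uhrf1, which recruits Dnmt1 to hemimethylated DNA, was at 12.74, 12.72 and 12.62 in Pers1 and at 12.82, 12.57 and 12.63 in Pers2. It was at 10.70, 10.68 and 10.82 in Teff. PAt libraries held 10.24, 10.02 and 9.76, and those of Arrested 10.11, 9.93 and 9.79. Tnaive was far lower, at 7.91, 7.74 and 8.05. The levels ran in steps, the persistent populations, then Teff, then PAt with Arrested, then Tnaive, and the libraries of adjacent levels did not overlap. Relative to Tnaive the mean was 27.8-fold in Pers1, 27.4-fold in Pers2, 7.14-fold in Teff, 4.32-fold in PAt and 4.12-fold in Arrested. Uhrf1 rose by 2.71 ± 0.07 in the persistent populations against PAt and Arrested (6.54-fold, limma adjusted p = 1.99e-17), by 1.95 ± 0.09 against Teff (adjusted p = 1.20e-13), and by 2.84 ± 0.11 in Teff against Tnaive (adjusted p = 2.00e-15). PAt and Arrested also exceeded Tnaive, by 2.08 ± 0.09 (adjusted p = 3.33e-14).

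Members of each family were compared per length of exon (log2 value per kb of the merged exons), since a longer transcript collects more reads. On that scale Dnmt1 stood at 11.12 in Pers1 and 11.21 in Pers2, with Uhrf1 close by at 10.79 and 10.77. In Tnaive, Uhrf1 was at 5.99 per kb, which is 4.01 log2 units below Dnmt1, against 0.33 below it in Pers1.

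Since Dnmt1 and Uhrf1 were both highest in the persistent populations, the 250 bases before each of their RefSeq transcription starts (GRCm38.p6) were searched on both strands for 4 strings of 8 letters that E2F factors, which drive genes of DNA replication, are known to bind: TTTGGCGC, TTTCGCGC, TTTCCCGC and TTTGCCGC. A single match was found for each gene, both to TTTCGCGC, and none for the other 5 members. The matches are printed with the bases around them, with the matched letters in capitals, read 5′ to 3′ on the strand of the gene. For Dnmt1 the letters are the reverse complement of the string.

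Dnmt1 (minus strand), chr9:20952824-20952853: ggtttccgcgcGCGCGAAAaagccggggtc
Uhrf1 (plus strand), chr17:56304117-56304146: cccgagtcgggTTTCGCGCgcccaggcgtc

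The Dnmt1 match begins 219 bases before the most downstream of its 3 starts, and all 30 printed bases fall in an annotated exon of another Dnmt1 transcript. The Uhrf1 match begins 185 bases before the downstream of its 2 starts and lies outside annotated Uhrf1 exons. Of 32851 mouse promoters in the same table, 0.256% held TTTCGCGC and 1.86% held any of the 4 strings. These windows also differed in CG content. The window with the Dnmt1 match held 26 CG dinucleotides and that of Uhrf1 held 30, against a median of 6 over all promoters, while the most upstream Dnmt1 window held 2. Tet2 had the most, at 51, which is more than 99.9% of promoters, and the windows of Dnmt3a held 38, 40 and 15. A match describes letters in a window and says nothing on binding.

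Dnmt3a and Dnmt3b, the de novo methyltransferases, moved little. Dnmt3a was lowest in Tnaive, with values of 12.07, 11.95 and 11.98, and all other libraries lay between 12.21 and 12.59. Its 5 other population means, from 12.35 in Arrested to 12.48 in Teff, overlapped with their neighbours. Dnmt3a was higher in Teff than in Tnaive by 0.47 ± 0.08 (1.39-fold, limma adjusted p = 1.80e-05) and in PAt and Arrested than in Tnaive by 0.36 ± 0.07 (adjusted p = 9.97e-05), both short of the fold threshold of 1. Dnmt3a in the persistent populations differed from that in PAt with Arrested by 0.08 ± 0.05 (interval -0.03 to 0.20, adjusted p = 0.177).

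Dnmt3b was highest where Dnmt3a was lowest. Its highest means were in Tnaive (9.27 ± 0.09, SD, n = 3) and PAt (9.23 ± 0.02), followed by Arrested (9.02 ± 0.04), Pers1 (8.94 ± 0.04), Pers2 (8.85 ± 0.09) and Teff (8.77 ± 0.14). The Tnaive libraries ran from 9.18 to 9.36 and those of Teff from 8.66 to 8.92, without overlap. Teff was lower than Tnaive by 0.50 on the log2 scale (fold change -0.50 ± 0.08, limma adjusted p = 2.83e-05), and PAt with Arrested was higher than Teff by 0.36 ± 0.07 (adjusted p = 2.86e-04). Antisense genes overlap exons of both (Dnmt3aos by 289 bases, Dnmt3bos by 291). Dnmt3aos itself had a mean of 0.24, against 12.35 for Dnmt3a.

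**Figure D2:**
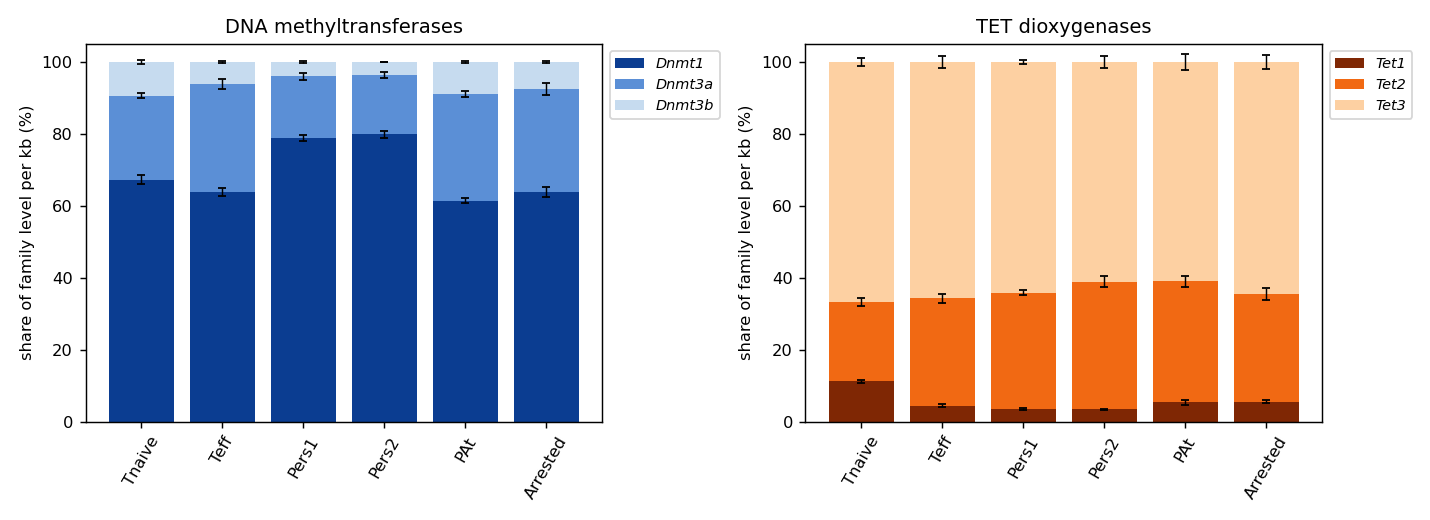
Share (%) of the summed level per kb of merged exons taken by each methyltransferase (left) and each Tet gene (right) in the 6 populations, as stacked bars of the mean of 3 libraries with SD. Dnmt1 takes 78.8% and 79.9% of its family in Pers1 and Pers2, and Tet1 takes 11.2% of its family in Tnaive.

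As a share of the 3 methyltransferase RNAs per kb, Dnmt1 made up 78.8% ± 0.8 in Pers1 and 79.9% ± 0.9 in Pers2 (SD, n = 3). It made up 67.2% in Tnaive, 63.9% in Teff, 63.8% in Arrested and 61.5% in PAt. The share of Dnmt3a was 30.0% in Teff and 29.7% in PAt but 17.2% in Pers1 and 16.5% in Pers2, although its own level differed little among them. A share moves when another member of the family moves. Dnmt3b took 9.35% in Tnaive, 8.88% in PAt and no more than 7.56% in the other populations.

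Tet1 was the member of its family that moved furthest. In Tnaive its log2 values were 10.93, 10.94 and 11.01. They were 9.33, 9.56 and 9.33 in Teff, 9.52, 9.77 and 9.32 in PAt, and 9.53, 9.63 and 9.70 in Arrested. The lowest values were those of Pers1, at 8.60, 8.81 and 8.58, and of Pers2, at 8.63, 8.52 and 8.55. Tnaive stood apart above, the persistent populations stood apart below, and Teff, PAt and Arrested overlapped. Tet1 fell by 1.56 ± 0.10 in Teff against Tnaive (0.340-fold, limma adjusted p = 1.99e-11) and was also called lower in PAt and Arrested against Tnaive (-1.38 ± 0.09, adjusted p = 1.51e-11). In the persistent populations it was below PAt and Arrested by 0.96 (fold change -0.96 ± 0.07, adjusted p = 1.26e-10), short of the fold threshold. That call changed with 1 library, as the value was -1.01 without PAt replicate 3, and with the scaling, as it was -1.03 when libraries were centred on their medians. Against Teff the persistent populations had a fold change of -0.79 ± 0.09 (adjusted p = 1.06e-07). Per kb, Tet1 made up 11.2% of the 3 Tet RNAs in Tnaive, 4.45% in Teff, 5.37% in PAt, 5.55% in Arrested, 3.47% in Pers1 and 3.43% in Pers2.

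Tet3 was the most abundant Tet RNA per kb in every population, with 61.0% to 66.8% of the family. Its means descended from Tnaive (13.17 ± 0.05, SD, n = 3) through Teff (12.92 ± 0.08), Arrested (12.79 ± 0.09), PAt (12.68 ± 0.03) and Pers1 (12.50 ± 0.08) to Pers2 (12.35 ± 0.05). Of these neighbours Arrested and PAt overlapped and the others did not, although the lowest Teff library and the highest Arrested library both lay at 12.85. Tet3 in the persistent populations was below that in PAt and Arrested, with a fold change of -0.31 ± 0.04 (limma adjusted p = 3.87e-07) and below that in Teff, with -0.49 ± 0.05 (adjusted p = 1.10e-08). Each of these is under the fold threshold. From Tnaive to Pers2 the mean level differed by 0.82, so that Pers2 held 0.567 of the Tnaive level.

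Tet2 varied least, between 11.17 ± 0.12 in Pers1 and 11.47 ± 0.10 in PAt (SD, n = 3). Its values in the persistent populations were 11.26, 11.22 and 11.04 for Pers1 and 11.20, 11.18 and 11.28 for Pers2, all below the lowest PAt or Arrested library at 11.30. The fold change between them was -0.21 ± 0.04 (limma adjusted p = 2.93e-04), and Teff exceeded Tnaive by 0.21 ± 0.06 (adjusted p = 0.00665). That last difference was 0.13 (adjusted p = 0.0865) when libraries were centred on their medians, and the one between PAt with Arrested and Tnaive went from 0.18 to 0.10 (adjusted p = 0.126).

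**Figure D3:**
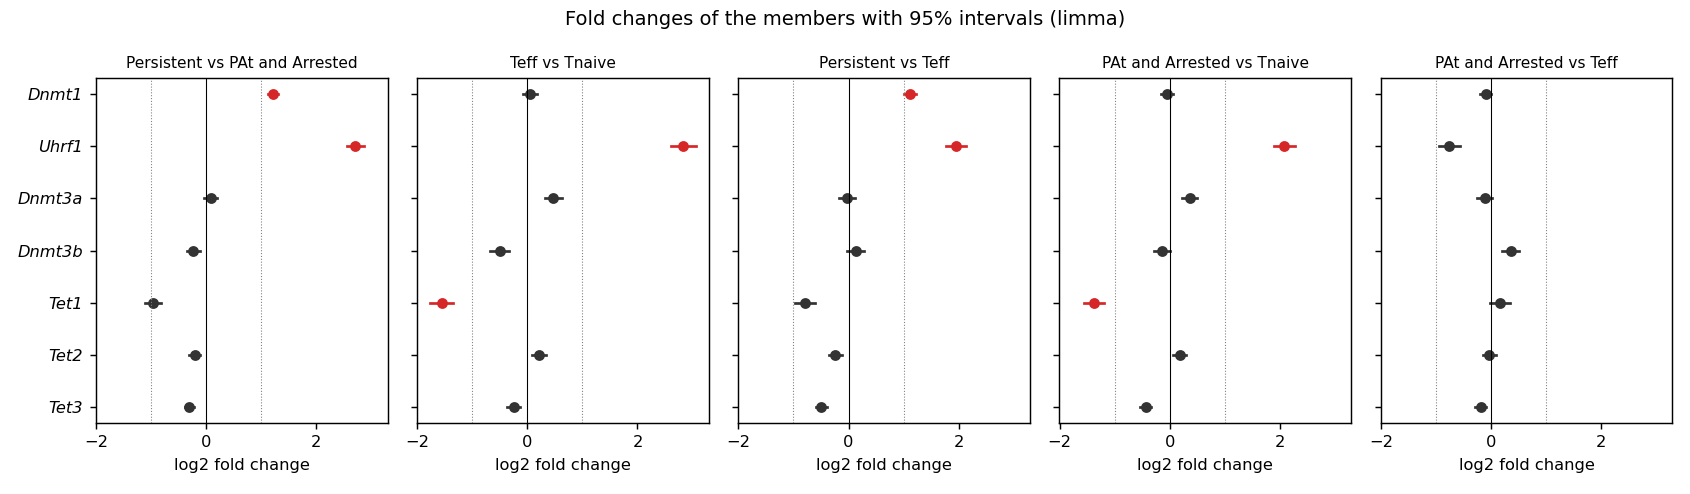
Log2 fold change (x axis) of each gene with its 95% interval from limma in 5 comparisons (panels), with dotted lines at a fold threshold of 1 in each direction. Red marks genes past both thresholds: Dnmt1 and Uhrf1 where persistent populations are compared, and Uhrf1 with Tet1 where Tnaive is the reference.

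Counted over the family, a member was called when its limma p, adjusted over all 13190 genes, was under 0.05 and its log2 fold change was over 1 in size. Between the persistent populations and PAt with Arrested, 2 of 7 members were called, Dnmt1 and Uhrf1, both higher, where 7.51% of all genes were called. By the adjusted p alone 6 of 7 passed, with Dnmt1 and Uhrf1 higher and Dnmt3b and the 3 Tet genes lower, but so did 70.9% of all genes, and that count is near its background. The median fold change of the 7 was -0.21, against -0.01 for all tested genes.

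Between Teff and Tnaive 2 of 7 were called, with Uhrf1 higher and Tet1 lower, against 11.2% of all genes, and 6 passed by the adjusted p alone, against 59.0%. Dnmt1 was the member that did not. Against Teff, the persistent populations had 2 members called, Dnmt1 and Uhrf1, against 8.31%, and 5 by the adjusted p alone, against 58.7%. For PAt and Arrested against Tnaive there were again 2, Uhrf1 higher and Tet1 lower, against 7.90%, and 5 by the adjusted p alone, against 50.7%. These comparisons share populations and are not independent of each other.

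PAt and Arrested against Teff gave no called member by limma, where 6.88% of genes were called. By the adjusted p alone 3 passed, against 52.7%, and 3 had an unadjusted p under 0.05, against 57.7%, so that neither count exceeds its background. They were Uhrf1 (-0.76 ± 0.09, adjusted p = 4.53e-07), Dnmt3b (0.36) and Tet3 (-0.19 ± 0.05, adjusted p = 0.00202). With the replicate number as a block Dnmt3a also passed, at an unchanged -0.11 (adjusted p = 0.0457 in place of 0.168).

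Within the pairs of Treg populations the members were close. Pers2 against Pers1 gave 0 called members by limma, against 0.190% of genes, and 0 by the adjusted p alone, against 10.6%. Of the 7, 1 had an unadjusted p under 0.05, where 24.0% of all genes did. It was Tet3, with a fold change of -0.15 ± 0.05 (adjusted p = 0.0784). Arrested against PAt gave 0 called members by limma, against 0.121% of genes, and 0 by the adjusted p alone, against 5.04%. Here 2 of 7 had an unadjusted p under 0.05, where 18.1% of all genes did, with Dnmt3b at -0.21 ± 0.08 (adjusted p = 0.184) and Tet2 at -0.13 ± 0.06 (adjusted p = 0.271). For Dnmt1 the 95% intervals were -0.03 to 0.22 between Pers2 and Pers1 and -0.04 to 0.20 between Arrested and PAt, and for Uhrf1 they were -0.24 to 0.20 and -0.28 to 0.15. These are the sizes that the replicate spread leaves.

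**Figure D4:**
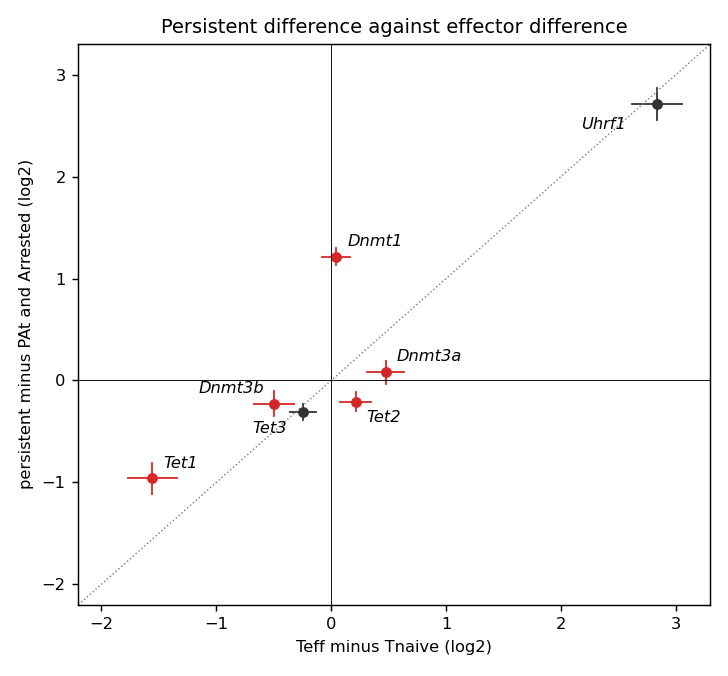
For each gene, the difference between the persistent populations and PAt with Arrested (y axis, log2) against the difference between Teff and Tnaive (x axis, log2), with 95% intervals and a dotted line where both are equal. Red marks genes with an adjusted p under 0.05 for the difference between them; Dnmt1 lies at 1.21 on the y axis and 0.05 on the x axis, and Uhrf1 at 2.71 and 2.84.

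Mki67 rose both from Tnaive to Teff (by 4.14) and from PAt and Arrested to the persistent populations (by 2.88). Whether each member moved equally in these steps, which share no libraries, was tested as the difference between them. Dnmt1 moved by 1.21 in the Treg step and 0.05 in the effector step, a difference of 1.17 ± 0.07 (limma adjusted p = 1.78e-11), and was the 1 member called, against 8.42% of all genes. Uhrf1 moved by 2.71 and 2.84, a difference of -0.13 ± 0.13 (interval -0.39 to 0.14, adjusted p = 0.447). By the adjusted p alone 5 members passed, against 48.7%. Tet1 moved by -0.96 in the Treg step and -1.56 in the effector step, which differ by 0.59 ± 0.12 (adjusted p = 4.32e-04). Tet2 moved in opposite directions, -0.21 and 0.21 (difference -0.42 ± 0.08, adjusted p = 1.23e-04). For Tet3 the difference was -0.06 ± 0.07 (interval -0.20 to 0.08, adjusted p = 0.503).

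**Figure D5:**
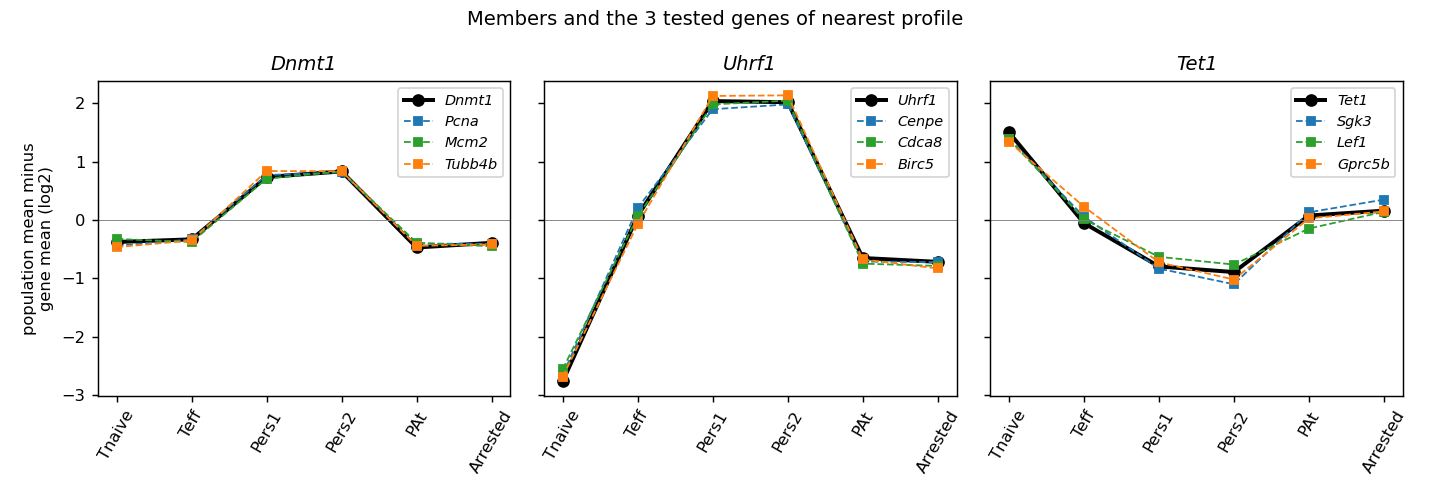
Population means (y axis, log2, each gene centred on its own mean) over the 6 populations (x axis) for Dnmt1, Uhrf1 and Tet1 (black) and the 3 tested genes with the nearest profile to each (dashed). Pcna lies 0.04 from Dnmt1 and Cenpe 0.10 from Uhrf1 in root mean square difference.

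Among all tested genes, the profile nearest to that of each member was sought as the smallest root mean square difference between centred means over the 6 populations. For Dnmt1 these were Pcna, the sliding clamp of DNA replication (0.042), Mcm2, a subunit of the replicative helicase (0.051), and the tubulin gene Tubb4b (0.058). Pcna had means of 12.31 in Tnaive, 12.42 in Teff, 13.52 and 13.56 in Pers1 and Pers2, and 12.35 and 12.34 in PAt and Arrested. Like Dnmt1, it was highest in the persistent populations. For Uhrf1 the nearest were genes of mitosis, namely Cenpe (0.095), a kinetochore motor, and Cdca8 (0.101) and Birc5 (0.102), subunits of the chromosomal passenger complex. Cenpe went from 6.64 in Tnaive to 9.50 in Teff and to 11.19 and 11.27 in Pers1 and Pers2. The 250 bases before the RefSeq starts of these 6 genes held none of the 4 E2F strings, a search chosen after the neighbours were known.

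For Tet1 the nearest profiles were those of Sgk3 (0.134), a kinase gene, Lef1 (0.136), which encodes a transcription factor of naive T cells, and Gprc5b (0.147). Lef1 was at 14.13 in Tnaive, 12.76 in Teff, 12.12 and 11.98 in Pers1 and Pers2, and 12.60 and 12.89 in PAt and Arrested. For the members that moved little the nearest genes were Cdk17, Ucp2 and Ergic3 for Dnmt3a, Lins, Jrkl and Aatf for Dnmt3b, C2cd5, Yipf2 and Tgfbrap1 for Tet2, and Yeats2 and Orai2 for Tet3, at distances of 0.021 (Cdk17) to 0.045 (Orai2). Between members, the means of Uhrf1 and Tet1 ran in opposite directions (Pearson's r = -0.98 over 6 populations) and those of Tet1 and Tet3 together (0.93), whereas Uhrf1 and Dnmt1 had 0.86. These describe 6 points that share normalisation.

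Genes of S phase and proliferation stood beside the members as a companion list of 17, all tested. In the persistent populations 14 of 17 were called higher than in PAt and Arrested and 0 lower (median fold change 1.90, all genes -0.01). Of all genes 7.51% were called there, in either direction. In Teff against Tnaive 8 were called higher and 0 lower, against 11.2% of all genes, with a median of 0.96 and a wide spread. Rrm2, a subunit of ribonucleotide reductase, rose by 2.99, the replication licensing gene Cdc6 by 2.14 and Mcm6 by 1.17. The other subunits of the same helicase were at 0.95 (Mcm5), 0.56 (Mcm3), 0.19 (Mcm4), 0.18 (Mcm7) and -0.05 (Mcm2), with Pcna at 0.11 and Dnmt1 at 0.05. Cdt1, another licensing gene, was at -0.54 ± 0.08 (limma adjusted p = 7.03e-06). For the difference between the Treg step and the effector step 7 of 17 were called higher and 1 lower, against 8.42% of all genes. Among the 7 were Mcm3 (1.36), Mcm2 (1.24) and Pcna (1.09), beside 1.17 for Dnmt1, and the 1 was Mki67 (-1.26). The summed level of the list was 16.93 to 17.20 in the persistent libraries, 15.58 to 15.65 in Teff, 15.22 to 15.46 in PAt and Arrested and 14.83 to 14.90 in Tnaive. The part of the number of cycling cells in the levels of Dnmt1 and Uhrf1 was not tested.

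Partners of methylation maintenance and de novo methylation were 14 genes, of which 12 were tested. Between the persistent populations and PAt with Arrested 7.51% of all genes were called, in either direction. Of the 12, 4 were called higher in the persistent populations and 0 lower (median 0.16). They were Hells, a chromatin remodeller needed for DNA methylation (2.15 ± 0.08, limma adjusted p = 4.03e-15), the replication ligase gene Lig1 (2.09 ± 0.05), Cdca7, an activator of Hells (1.27 ± 0.06), and Pcna (1.20 ± 0.04), which is also in the S phase list. Hells and Lig1 were also called higher in Teff than in Tnaive (1.60 and 1.30), where 11.2% of all genes were called. The genes of H3K9 methylation were not called, with Ehmt1 at -0.26, Ehmt2 at 0.14 and Setdb1 at 0.09.

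Base excision and partners of Tet oxidation were 19 genes, of which 16 were tested. Tdg was under the filter on low values. In the persistent populations 2 were called higher than in PAt and Arrested, both glycosylases, Neil3 (2.28 ± 0.09) and the uracil glycosylase gene Ung (1.47 ± 0.07), and 1 was called lower, Cxxc5 (-1.12 ± 0.09), whose protein binds unmethylated CG. Of all genes 7.51% were called there, and the list had a median of -0.04. Neil3 was also called in Teff against Tnaive (2.65), whereas Ung was at -0.31 there. As for Dnmt1 and 7 genes of the S phase list, the difference between these steps was called higher for Ung (1.78 ± 0.12, limma adjusted p = 1.16e-10). For that difference 8.42% of all genes were called, in either direction. Cxxc5 was at 0.99 in Teff against Tnaive, under the fold threshold, and its difference of steps was -2.11 ± 0.15. PAt and Arrested against Tnaive had Neil3 and Gadd45g called higher (1.87 and 1.31) and Idh2, which makes the cosubstrate of Tet enzymes, called lower (-1.10). In that comparison 7.90% of all genes were called.

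The supply of S-adenosylmethionine, the methyl donor, was followed by 14 genes, all tested. In the persistent populations 1 was called higher than in PAt and Arrested and 0 lower, with a list median of 0.24. It was Ahcy (1.45 ± 0.05, limma adjusted p = 1.81e-15), which clears the product that inhibits methyltransferases. Of all genes 7.51% were called in that comparison, so that 1 of 14 is near its background. In Teff against Tnaive 0 were called by limma, where 11.2% of all genes were, and the list median was -0.27. There 4 were higher and 8 lower at an adjusted p under 0.05, where 59.0% of all genes passed. Of the 9 genes listed as readers of methylated CG 0 were called in any of the 8 comparisons by limma. Of all genes 0.121% to 11.2% were called in these comparisons. Of the 9, 6 had an adjusted p under 0.05 between the persistent populations and PAt with Arrested, of which 3 were higher and 3 lower. The share of all genes was 70.9% there, so that the 6 are near their background. The furthest of them was Zbtb4, at -0.94 ± 0.05 (adjusted p = 5.46e-13), and Uhrf2, the paralogue of Uhrf1, was at 0.20.

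Treg genes known for demethylated elements in Treg cells, namely Foxp3, Il2ra, Ctla4, Tnfrsf18, Ikzf2 and Ikzf4, followed another order. All 6 were called higher in PAt and Arrested than in Tnaive (median 3.89), where 7.90% of all genes were called in either direction. All 6 were also called higher in the persistent populations than in Teff (median 3.19), against 8.31%. Timer is under Foxp3 control and the populations were sorted by it. A higher Foxp3 in these comparisons was thus set by the sort. The sort also separates Treg from other T cells, and the rest of the list are Treg genes. Neither count of 6 is thus a test of the list. Between the persistent populations and PAt with Arrested Ctla4 was called higher (1.69 ± 0.14, a larger difference than that of Dnmt1), Ikzf4 was at -0.93 ± 0.07 and Foxp3 at 0.24. Of these 6 genes 4 were higher and 1 was lower by the adjusted p alone, where 70.9% of all genes passed. PAt and Arrested were above Teff in Ctla4 by 0.43 ± 0.17. In Teff against Tnaive 3 of the 6 were called higher, Ikzf2 (4.62), Ctla4 (3.90) and Il2ra (1.73), and 1 lower, Ikzf4 (-1.51). There 11.2% of all genes were called, and Tnfrsf18 (0.45) and Foxp3 (-0.81) were under the fold threshold.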

How the data were processed

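Libraries were stranded paired-end mRNA libraries. Per the submitters' processing notes, reads were handled with CASAVA 1.8.2, FastQC 0.11.2, TopHat2 2.0.9 and DESeq2 on mm10, and the counting step, its use of strand and the annotation are not given in the sources used here. For 15402 genes in 18 libraries the authors deposited normalised counts on a log2 scale, in a form like the regularised log of the DESeq2 the authors ran. That transform shrinks the fold changes of genes of low count. Counts themselves were not used here, so depth and counting error are unknown and precision rests on the spread between the 3 libraries of a population.

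The values were used as deposited, with no pseudocount. limma 3.58.1 (R 4.3.3) was fitted with 1 mean per population over the 18 libraries, which leaves 12 residual degrees of freedom, with the variance prior following mean expression and Benjamini-Hochberg adjustment over the 13190 genes with a mean of at least 3 (2212 were left out). All adjusted p-values come from it, and the thresholds on adjusted p and fold change are those of the study. The fit was tested on simulated data with known changes. Replicates are pools of mice. The p-values rest on the spread between libraries of a population, pooled over all populations and without pairing by replicate number.

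The 7 members and the gene lists were chosen with earlier results of these data known. Named genes were the members, Foxp3 and Mki67, the 3 nearest profiles per member, up to 4 called genes of each list with the largest fold change between the persistent populations and PAt with Arrested, and genes that account for a small count. Some genes under this rule are not reported here. Other list genes, the cell type markers among them, were named after their values were seen. Gene lengths came from GENCODE vM21 (GRCm38) and promoters from RefSeq (GRCm38.p6), in which all 7 members matched. Lengths and identities of the proteins were not computed.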

Additional observations from a re-analysis of the deposited data

Results flagged for a closer look

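In 5 members the difference between the persistent populations and PAt with Arrested was not equal to the difference between Teff and Tnaive, by a limma test of the difference between them. The value was 1.17 for Dnmt1, -0.39 for Dnmt3a (0.08 in the Treg step and 0.47 in the effector step, adjusted p = 0.00159), 0.27 for Dnmt3b (-0.23 and -0.50, adjusted p = 0.0347), 0.59 for Tet1 and -0.42 for Tet2. The value of Dnmt3b no longer passed the adjusted p without Teff replicate 1 or 2, Tnaive replicate 1 or 2, Pers1 replicate 2, Pers2 replicate 1 or Arrested replicate 2 (0.22 to 0.27, adjusted p = 0.0507 to 0.108). Of these members, Dnmt1 passed the fold threshold of 1. By the adjusted p alone 48.7% of all tested genes passed the same test.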

How the results depend on the processing

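Counts of called members did not move by more than 1.5 times with no filter on low values, a filter at a mean of 5, only the populations compared in the fit, no trend of the variance, libraries centred on their median, or 1 library left out. With libraries centred, 3 members were called in place of 2 between the persistent populations and PAt with Arrested, Tet1 joining at -1.03. By the adjusted p alone the counts were 6 there (9357 of all genes in place of 990), 6 for Teff against Tnaive (7785 for 1472), 5 for the persistent populations against Teff (7739 for 1096), 5 and 3 for PAt and Arrested against Tnaive (6684 for 1042) and Teff (6950 for 908), and 5 for the difference between the steps (6420 for 1110). With a fold threshold of 0.5, PAt and Arrested against Teff gave 1 and the difference between the steps gave 2, and over all genes 2487 and 3168. That threshold gave 3472, 3589, 2864, 2380, 319 and 229 genes in the persistent populations against PAt and Arrested, Teff against Tnaive, the persistent populations against Teff, PAt and Arrested against Tnaive, Pers2 against Pers1 and Arrested against PAt. Pers2 against Pers1 and Arrested against PAt gave 1395 and 665 by the adjusted p alone, in place of 25 and 16.

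Of 329 fold changes of single members under other settings 327 kept their direction and side of the threshold. Tet1 was the exception above, and Dnmt1 in Teff against Tnaive was -0.038 with libraries centred. Of 525 fold changes with 1 library left out, 509 did so. Tet1 in the persistent populations against PAt and Arrested ranged from -1.01 (without PAt replicate 3) to -0.90, and 15 others changed sign, none of which passed the adjusted p. They belong to Dnmt3a in the persistent populations against Teff (-0.066 to 0.010), Tet2 in PAt and Arrested against Teff (-0.064 to 0.0092), Uhrf1 (-0.094 to 0.030), Dnmt3a (-0.054 to 0.098) and Tet2 (-0.019 to 0.094) in Pers2 against Pers1, and Uhrf1 (-0.19 to 0.052), Dnmt3a (-0.092 to 0.042) and Tet1 (-0.024 to 0.20) in Arrested against PAt. By the adjusted p alone, 5 of the 329 and 12 of the 525 crossed 0.05. With libraries centred these were Tet2 in Teff against Tnaive and, in PAt and Arrested against Tnaive, Dnmt1, Tet2 and Dnmt3b (-0.22, adjusted p = 0.0150), and with the replicate block Dnmt3a in PAt and Arrested against Teff (adjusted p = 0.0457). Gained with 1 library left out were Dnmt3a in the persistent populations against PAt and Arrested (0.12 without Pers1 replicate 3), Dnmt3b in the persistent populations against Teff (0.20 without Teff replicate 3), and, in PAt and Arrested against Teff, Dnmt1 (-0.13 without PAt replicate 1) and Tet1 (0.25 without Teff replicate 2, 0.23 without PAt replicate 3). The cause was not tested.

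The labels do not say that a replicate number marks a shared pool. Deviations from the population means correlated with a median r of 0.17 over the 45 pairs of libraries with the same number (-0.21 to 0.44, 32 above 0.1) and -0.06 over 90 pairs with different numbers, and 17 of 18 libraries correlated best with their own number. A replicate block in the model left every count of called members as it was, with 2 between the persistent populations and PAt with Arrested (992 of all genes) and 1 for the difference between the steps, and changed no call of a single member at both thresholds.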
